A study of Homo sapiens with 35 samples.

Results

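The comparison described here set H1 cells collected 6 h after the start of CHIR alone against untreated H1 cells of the same time. Its members are the 4 bulk RNA-seq libraries that the labels assign to these groups, 2 with CHIR and 2 untreated, of 35 samples in the series. H1 is an established human embryonic stem cell line, and the cells were not sorted. CHIR99021 (CHIR) is an inhibitor of the kinases GSK3A and GSK3B, and the protocol gives it at 3 µM on the first day, in RPMI medium with 0.2% fetal bovine serum. The series covers definitive endoderm differentiation with Activin A, and in these 2 groups neither Activin A nor the compounds coded BRD and JNJ was added. The untreated cells are described without a medium, so the addition of CHIR and a change of medium cannot be told apart. The labels also do not say whether the replicates were separate inductions, so the p-values below measure a spread between libraries that may be technical. That spread was estimated over all 12 libraries of 6 h, in 6 groups, and not over these 4 alone. The comparison addresses CHIR without Activin A, together with any change of medium.

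In cells without a Wnt signal, GSK3 marks beta-catenin for destruction in a complex with AXIN and APC. Inhibition of GSK3 lets beta-catenin build up, enter the nucleus and act with TCF and LEF proteins at Wnt target genes, many of which encode feedback inhibitors of the same pathway. In the embryo, Wnt signalling and Nodal together start the primitive streak, the structure from which endoderm and mesoderm arise.

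The libraries held 13088542 and 12957033 counts with CHIR, against 12418797 and 11846699 in untreated cells. Levels are in CPM, the count of a gene relative to the TMM-scaled total of its library, and each is a level within a gene, not corrected for length. Changes are log2 differences, CHIR minus untreated, with their standard error (SE). A gene is said to have risen or fallen where edgeR's quasi-likelihood test gave a Benjamini-Hochberg adjusted p under 0.05, over 14874 genes in 1 fit of the 12 libraries of 6 h. By this rule 2.96% of the genes tested were called, 1.69% higher and 1.28% lower with CHIR, and 42.9% had both CHIR libraries on the same side of both untreated libraries. The median change over all genes was -0.0027, the 10th percentile -0.50 and the 90th percentile 0.50. Of the 251 genes that rose, 90 rose at least 2-fold (0.605% of the genes tested), and of the 190 that fell, 34 fell at least 2-fold (0.229%), together 0.834%. At an unadjusted p under 0.05 the share was 13.5%, both directions together. DESeq2 called 336 higher and 240 lower of the 14874 genes, and limma-voom 220 and 205. Counts of list members below are to be read against these shares, also where they are not repeated. Between 208 and 268 genes were called when any 1 of the 4 libraries was left out, and 143 genes, 98 higher and 45 lower, were called in the full fit and in all 4 of these.

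**Figure D1:**
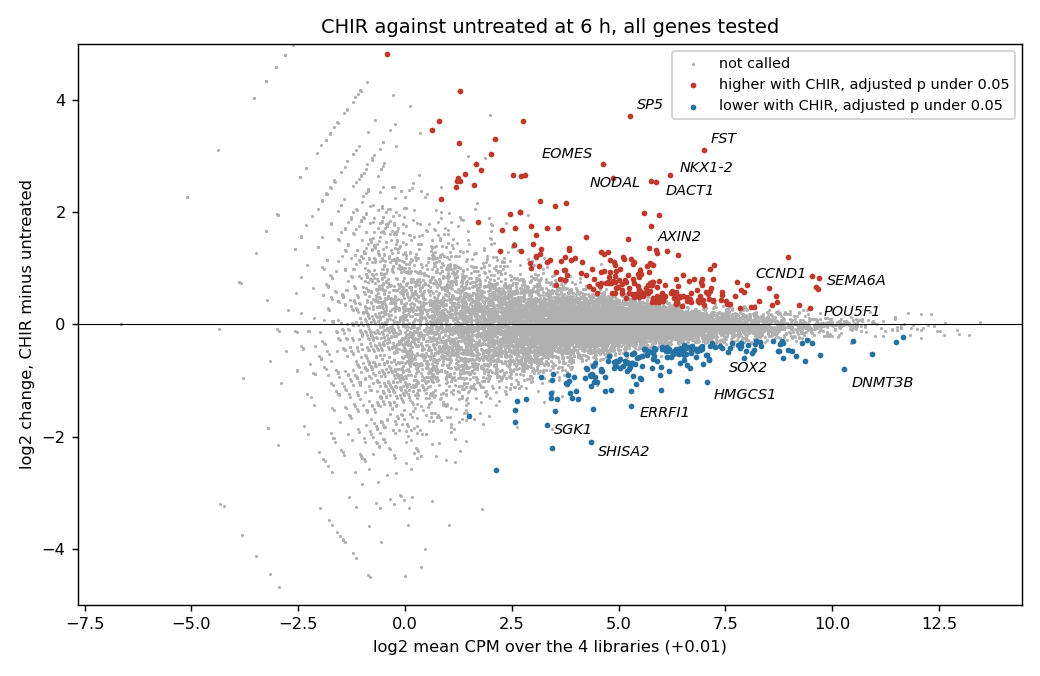
Scatter of the change with CHIR (vertical axis, log2, CHIR minus untreated) against the mean level over the 4 libraries (horizontal axis, log2 CPM) for every gene tested, with called genes coloured by direction. 72 genes lie beyond the vertical range, SP5 (3.71) and FST (3.10) stand highest among the labelled genes, and SHISA2 (-2.09) lowest.

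The stretches of DNA just upstream of 3 genes that rose are shown first. They were picked because they hold the core letters that TCF and LEF proteins bind, so their matches test nothing. Each is the 250 bases before the RefSeq start of the gene (GRCh38.p14), read 5′ to 3′ on the strand of the gene, and capitals mark the letters CTTTGA or, for the other strand, TCAAAG. SP5 and SP8 encode related zinc-finger transcription factors that Wnt signalling induces directly, and DACT1 encodes a protein that binds Dishevelled. SP5 lies on the plus strand of chromosome 2 (chr2:170715087-170715336), SP8 on the minus strand of chromosome 7 (chr7:20786887-20787136) and DACT1 on the plus strand of chromosome 14 (chr14:58633811-58634060).
SP5: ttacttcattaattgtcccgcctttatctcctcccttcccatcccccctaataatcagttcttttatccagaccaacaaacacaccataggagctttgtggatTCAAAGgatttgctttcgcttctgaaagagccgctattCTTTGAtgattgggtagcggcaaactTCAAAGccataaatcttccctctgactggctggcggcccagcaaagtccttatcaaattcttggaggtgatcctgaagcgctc
SP8: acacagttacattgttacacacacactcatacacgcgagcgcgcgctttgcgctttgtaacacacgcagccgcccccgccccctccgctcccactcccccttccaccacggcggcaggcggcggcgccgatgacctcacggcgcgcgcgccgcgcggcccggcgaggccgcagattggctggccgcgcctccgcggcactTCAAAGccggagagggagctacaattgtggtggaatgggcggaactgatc
DACT1: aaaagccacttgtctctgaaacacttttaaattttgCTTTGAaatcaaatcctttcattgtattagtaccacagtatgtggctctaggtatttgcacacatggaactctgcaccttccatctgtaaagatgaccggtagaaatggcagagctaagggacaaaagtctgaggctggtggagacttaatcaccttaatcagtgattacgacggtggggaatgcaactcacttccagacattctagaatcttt
SP5 held 3 matches, 147, 109 and 83 bases before the start, SP8 held 1 at 50 bases, and DACT1 held 1 at 214 bases. Stretches with at least 3 matches made up 0.0699% of all 27195 RefSeq promoters of this length, and 0.0172% of the 11652 of tested genes. Stretches with at least 1 match made up 11.4% of the 27195. At least 1 match was present for 23 of 204 genes that rose and have an entry (11.3%), for 12 of 147 that fell (8.16%) and for 929 of all 11652 tested (7.97%). The stretches of FST, EOMES, NODAL, NKX1-2, FOXB1, LEF1, RNF43, WNT3 and TBXT held none, which says only that these letters are not in this window. The stretch of MYCN, which fell, held 1 match, as did those of MIXL1 and CDX2, which were not called. AXIN2, NKD1, CCND1 and PROX1 have no entry in the promoter table. A match is a run of letters, and binding was not measured.

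The gene lists from here on were chosen with earlier results of these data known, so their counts describe the members and do not test the lists. Of 20 direct Wnt target and feedback genes tested, 9 rose and none fell in the edgeR fit, against 1.69% and 1.28% of all genes, and their median change was 1.15 against -0.0027. At an unadjusted p under 0.05, 12 were higher and 1 lower. DESeq2 called 9 higher and limma-voom 7, and neither called any lower. SP5 (chromosome 2, 170715351 to 170718078, plus strand, GRCh38, GENCODE release 29) stood at 70.8 and 72.1 CPM with CHIR, against 3.95 and 7.05 CPM in untreated cells, the largest rise among the list members that were expressed in both groups. The groups lay far apart, and the pair with CHIR was the tighter. AXIN2 (chromosome 17, 65528563 to 65561647, minus strand), the scaffold of the destruction complex and a feedback inhibitor, stood at 78.9 and 71.2 CPM with CHIR, against 27.2 and 31.5 CPM in untreated cells. Its change was 1.36 ± 0.12 (SE; edgeR adjusted p = 1.06e-06), and the groups did not overlap.

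The other members that rose fall into 2 kinds. Among feedback inhibitors, NKD1, which acts on Dishevelled, had 26.5 and 28.8 CPM with CHIR, against 14.3 and 13.4 CPM in untreated cells (0.99 ± 0.17 on the log2 scale). APCDD1, a membrane inhibitor of Wnt receptors, had 17.2 and 17.7 CPM with CHIR, against 11.4 and 6.45 CPM in untreated cells (named after its values were seen). RNF43, a ubiquitin ligase that removes Frizzled receptors, had 4.24 and 7.65 CPM with CHIR, against 0.473 and 1.29 CPM in untreated cells, and DKK4, a secreted antagonist, had 3.03 and 3.33 CPM with CHIR, against 0.237 and 0.258 CPM. In all 4 genes both CHIR libraries were above both untreated ones. By limma-voom neither RNF43 nor DKK4 was called. RNF43 and DKK4 lost the call when any 1 of the 4 libraries was left out (highest adjusted p 0.289 and 0.173 by edgeR), and APCDD1 without CHIR replicate 1, CHIR replicate 2 or untreated replicate 2 (up to 0.252).

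Among regulators, CCND1, the cyclin D1 gene, had 321 and 311 CPM with CHIR, against 186 and 202 CPM in untreated cells, a change of 0.70 ± 0.08. LEF1, a partner of beta-catenin on DNA, had 7.73 and 10.4 CPM with CHIR, against 2.13 and 3.35 CPM, and SP8 had 9.25 and 9.47 CPM with CHIR, against 3.95 and 3.61 CPM. The CHIR and untreated libraries did not overlap for any of these genes. LEF1 lost the call without CHIR replicate 2 or untreated replicate 1 (adjusted p up to 0.197 by edgeR), and SP8 lost it without any 1 of the 4 (up to 0.134). With any 1 library left out, 4 or 5 of the 20 list members were called higher and none lower. SP5, AXIN2, NKD1 and CCND1 passed in all 13 alternatives.

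The other 11 members did not pass. MYC, often listed as a Wnt target, had 100.4 and 101 CPM with CHIR, against 118 and 116 CPM in untreated cells, a change of -0.22 ± 0.10 (edgeR adjusted p = 0.356). ZNRF3, the paralog of RNF43, had 26.1 and 21.6 CPM with CHIR, against 28.3 and 29.4 CPM, and TCF7 had 28.7 and 20.6 CPM with CHIR, against 20.1 and 13.5 CPM. Both MYC and ZNRF3 had their CHIR libraries below the untreated ones, and TCF7 had them above. Of all genes tested 42.9% were separated in this way, in either direction. CDX2, a posterior homeobox gene, had 1.21 and 1.14 CPM with CHIR, against 0.158 and 0.258 CPM, and CDX1 had 0.606 and 0.758 CPM with CHIR and 0 counts in both untreated libraries, at least 5.49-fold higher with CHIR on a floor of 3 counts over the group. Neither CDX gene passed (edgeR adjusted p = 0.278 and 0.116). Setting CDX1 to that bound left the list median at 1.15.

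**Figure D2:**
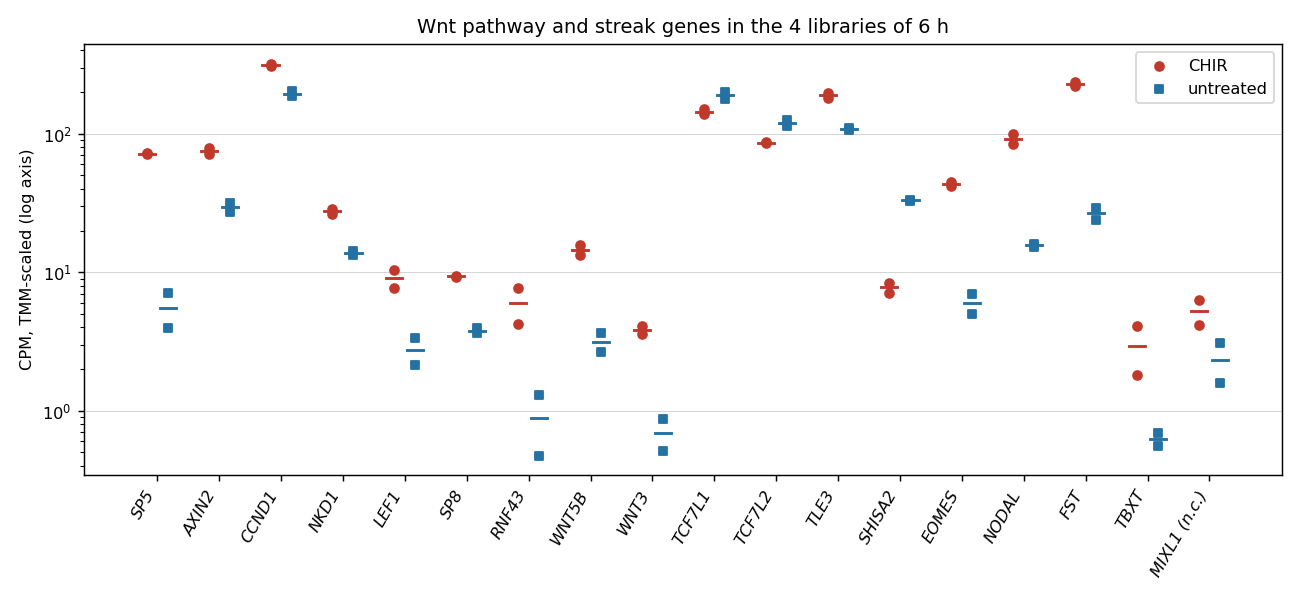
Level of Wnt pathway and streak genes in the 4 libraries with CHIR or untreated (vertical axis, TMM-scaled CPM on a log axis), with circles for CHIR, squares for untreated and a bar at each mean of 2 libraries; n.c. marks a gene that was not called. SP5 stands at 70.8 and 72.1 CPM with CHIR and at 3.95 and 7.05 CPM untreated, while TCF7L1, TCF7L2 and SHISA2 lie lower with CHIR.

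Of 28 Wnt ligands and receptors tested, 3 rose and none fell by edgeR, against 1.69% and 1.28% of all genes, with a median of 0.07. At an unadjusted p under 0.05 there were 5 higher and 1 lower; DESeq2 called 3 higher and none lower, and limma-voom 1 and none. 1 to 3 were higher and none lower when any 1 library was left out. WNT5B (chromosome 12, 1529891 to 1647243, plus strand), a ligand mostly tied to beta-catenin independent signalling, had 13.3 and 15.8 CPM with CHIR, against 3.63 and 2.67 CPM in untreated cells, a change of 2.20 ± 0.30 (edgeR adjusted p = 0.000211) that passed in every alternative. WNT3, the ligand that starts the streak in mouse embryos, had 4.09 and 3.56 CPM with CHIR, against 0.868 and 0.516 CPM, and the receptor gene FZD10 had 3.64 and 2.05 CPM with CHIR, against 0.237 and 0.258 CPM. Each of the 3 genes was higher in both CHIR libraries, WNT3 and FZD10 from levels under 1 CPM. WNT3 lost the call without CHIR replicate 1 or untreated replicate 2 (edgeR adjusted p up to 0.109), and FZD10 without CHIR replicate 1, untreated replicate 1 or untreated replicate 2 (up to 0.182). By limma-voom neither WNT3 nor FZD10 was called. WNT3 was also lost in a fit of the 4 libraries alone, and FZD10 in the fit over all 30 libraries. WNT3A had 4 and 1 counts in the CHIR libraries and 0 in both untreated ones, and was not tested. Abundant receptor genes were not called: FZD7 had 121 and 124 CPM with CHIR, against 112 and 104 CPM, LRP6 had 119 and 117 CPM, against 127 and 121 CPM, and ROR1 had 127 and 123 CPM, against 122 and 115 CPM.

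Of 26 genes of the destruction complex, Dishevelled and the nuclear partners of beta-catenin 1 rose and 2 fell, against 1.69% and 1.28% of all genes, with a median of -0.0016. 1 or 2 were higher and 0 to 2 lower when any 1 library was left out. GSK3A and GSK3B, which encode the targets of CHIR, had changes of 0.07 ± 0.20 and -0.01 ± 0.11, and CTNNB1, the beta-catenin gene, -0.13 ± 0.08; none passed, and the first 2 overlapped between the groups. These are RNA levels, and beta-catenin protein was not measured. TLE3, a Groucho corepressor of TCF proteins, had 197 and 182 CPM with CHIR, against 107 and 109.7 CPM in untreated cells, a change of 0.81 ± 0.09 (edgeR adjusted p = 1.22e-05). TCF7L1, which mainly represses targets in stem cells, had 150.2 and 139 CPM with CHIR, against 201 and 178 CPM, and TCF7L2 had 86.6 and 86.0 CPM with CHIR, against 125 and 114 CPM. Both TCF7L genes fell (-0.39 ± 0.09 and -0.47 ± 0.09), with no overlap between the groups. Each lost the call without CHIR replicate 1, CHIR replicate 2 or untreated replicate 1 (edgeR adjusted p up to 0.237 for TCF7L1 and 0.113 for TCF7L2).

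Of 13 secreted or membrane Wnt antagonists that are not on the feedback list, 3 fell and none rose by edgeR, DESeq2 and limma-voom alike. By edgeR 1.28% of all genes fell and 1.69% rose. None of the list was higher at an unadjusted p under 0.05, and the median was -0.16. Leaving out any 1 library left 1 or 2 lower. SHISA2, which holds Frizzled and FGF receptors inside the cell, had 7.12 and 8.41 CPM with CHIR, against 32.9 and 33.4 CPM in untreated cells, and passed in every alternative. SFRP1, a secreted Frizzled-like decoy, had 398 and 372 CPM with CHIR, against 498 and 482 CPM (-0.35 ± 0.07), and DRAXIN had 40.6 and 42.9 CPM with CHIR, against 62.5 and 57.6 CPM (-0.53 ± 0.13). SFRP2, the related decoy, had 447 and 494 CPM with CHIR, against 479.8 and 454 CPM, and the groups overlapped. SFRP1 lost the call without CHIR replicate 2 or untreated replicate 1 (edgeR adjusted p up to 0.189) and DRAXIN without any 1 of the 4 libraries (up to 0.256). None of 14 planar cell polarity genes, which serve the branch of the pathway without beta-catenin, was called in either direction by edgeR, DESeq2 or limma-voom, with 2 higher and 1 lower at an unadjusted p under 0.05. Among them PRICKLE1 had 32.1 and 37.4 CPM with CHIR, against 27.0 and 28.7 CPM, and CELSR2 had 14.4 and 14.9 CPM with CHIR, against 24.7 and 21.0 CPM.

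Of 13 primitive streak and mesendoderm genes tested, 5 rose and 1 fell, against 1.69% and 1.28% of all genes, with a median of 1.07. WNT3, described above, is among them. EOMES (chromosome 3, 27715949 to 27722711, minus strand), the T-box factor that mouse embryos need to form endoderm, had 41.9 and 44.6 CPM with CHIR, against 4.97 and 6.97 CPM in untreated cells. NODAL (chromosome 10, 70432315 to 70447951, minus strand), a secreted ligand that signals through Activin receptors, had 100.2 and 83.8 CPM with CHIR, against 15.3 and 15.9996 CPM. In both genes the CHIR libraries stood far above the untreated ones, and both passed in all 13 alternatives. TBXT (brachyury) was called from 4.09 and 1.82 CPM with CHIR, against 0.552 and 0.688 CPM, so the CHIR libraries differed from each other by more than 2-fold. It was not called by limma-voom, with a replicate block or in a fit of the 4 libraries alone. It lost the call without CHIR replicate 1, untreated replicate 1 or untreated replicate 2 (edgeR adjusted p up to 0.390). 3 to 5 of the list rose and none fell when any 1 library was left out.

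Other streak genes stayed near the floor of detection or did not pass at this time. MIXL1 had 6.29 and 4.17 CPM with CHIR, against 1.58 and 3.10 CPM in untreated cells (edgeR adjusted p = 0.0983), and it passed by DESeq2 (adjusted p = 0.0309). CER1, a secreted inhibitor of Nodal, had 6.14 and 6.21 CPM with CHIR, against 3.63 and 2.75 CPM, and GSC had 0.303 and 0.0758 CPM with CHIR, against 0.0789 and 0 CPM. GSC overlapped between the groups, while MIXL1 and CER1 did not, as was so for 42.9% of all genes tested. MESP1, a mesoderm factor, had 0 counts in all 4 libraries and was not tested. TDGF1, the Nodal co-receptor CRIPTO, fell by 0.27 on the log2 scale (608 and 628 CPM with CHIR, against 745 and 746 CPM), and lost the call without any 1 of the 4 libraries (edgeR adjusted p up to 0.277).

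Of 23 Nodal and Activin pathway genes, 3 rose and 2 fell, against 1.69% and 1.28% of all genes, with a median of -0.0095. NODAL (higher) and TDGF1 (lower), already counted among the streak genes, are among these. 2 or 3 were higher and 0 or 1 lower when any 1 library was left out. FST (chromosome 5, 53480409 to 53487134, plus strand), which encodes the Activin-binding protein follistatin, had 221 and 236 CPM with CHIR, against 23.9 and 29.3 CPM in untreated cells, a change of 3.10 ± 0.12 (edgeR adjusted p = 3.74e-11), with the CHIR libraries far above the untreated ones. PMEPA1, a feedback inhibitor of SMAD signalling, had 39.5 and 25.9 CPM with CHIR, against 20.4 and 18.9 CPM, and lost the call without CHIR replicate 1, untreated replicate 1 or untreated replicate 2 (adjusted p up to 0.410 by edgeR). The secreted inhibitors that Nodal induces were not called: LEFTY1 had 3.64 and 3.71 CPM with CHIR, against 6.71 and 5.08 CPM, and LEFTY2 had 2.50 and 0.758 CPM with CHIR, against 1.74 and 3.35 CPM. SMAD7, another feedback gene, had 23.2 and 20.9 CPM with CHIR, against 17.04 and 19.3 CPM, also without a call. LEFTY2 overlapped between the groups, and LEFTY1 and SMAD7 did not, as was so for 42.9% of all genes tested. SKIL, a SMAD corepressor, had 258 and 252 CPM with CHIR, against 350.0 and 300.04 CPM, and lost the call without CHIR replicate 1, CHIR replicate 2 or untreated replicate 1 (edgeR adjusted p up to 0.338). The receptor genes ACVR2B (224 and 209.8 CPM with CHIR, against 231 and 202 CPM) and ACVR1B (23.3 and 20.8 CPM, against 21.7 and 22.7 CPM) overlapped between the groups.

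Pluripotency genes moved in both directions. POU5F1 had 749 and 777 CPM with CHIR, against 773 and 769 CPM in untreated cells, so the groups overlapped, and the 95% interval of its change ran from -0.16 to 0.13. NANOG rose by 0.42 (133 and 131 CPM with CHIR, against 92.2 and 105 CPM) and SOX2 fell by 0.43 (198 and 192 CPM with CHIR, against 238 and 286 CPM). NANOG lost the call without CHIR replicate 1, CHIR replicate 2 or untreated replicate 1 (edgeR adjusted p up to 0.153), and SOX2 without CHIR replicate 1, CHIR replicate 2 or untreated replicate 2 (up to 0.170). Of 28 accessory pluripotency genes 4 rose and 6 fell, against 1.69% and 1.28% of all genes, with a median of -0.04. With any 1 library left out 3 were higher and 3 to 5 lower, and in the fit over all 30 libraries 2 were lower. TDGF1 (above) and VRTN lost the call without any 1 of the 4 libraries (edgeR adjusted p up to 0.183 for VRTN), and PODXL without CHIR replicate 1, CHIR replicate 2 or untreated replicate 1 (up to 0.107); VRTN and PODXL were named after their values were seen.

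KLF5, a Krüppel-like factor of naive stem cells, had 18.9 and 18.0 CPM with CHIR, against 4.26 and 4.30 CPM in untreated cells, a change of 2.10 ± 0.23 (edgeR adjusted p = 1.61e-05). Its relative KLF4 had 8.11 and 6.97 CPM with CHIR, against 4.34 and 1.81 CPM, and did not pass. The paralogs SALL1 and SALL2 went in opposite directions: SALL1 had 190.0 and 187 CPM with CHIR, against 90.5 and 99.6 CPM, and SALL2 had 364 and 371 CPM with CHIR, against 585 and 527 CPM. In both SALL genes the libraries did not overlap and the call held in all 13 alternatives. FOXD3, a forkhead factor of stem cells, had 9.17 and 12.7 CPM with CHIR, against 35.3 and 27.4 CPM, and PRDM14, a guard of the ground state, had 13.9 and 16.3 CPM with CHIR, against 30.4 and 27.1 CPM (named after its values were seen). Neither was called in the fit over all 30 libraries. PRDM14 lost the call without CHIR replicate 1 (edgeR adjusted p 0.0657). Other abundant members, LIN28A at 1732 and 1687 CPM with CHIR, against 1754 and 1799.5 CPM, and DPPA4 at 664 and 664 CPM, against 630.0 and 661 CPM, were not called.

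DNMT3B (chromosome 20, 32762385 to 32809356, plus strand), the de novo DNA methyltransferase that marks primed stem cells, had 925 and 893 CPM with CHIR, against 1602 and 1542 CPM in untreated cells. The libraries of each group were close together and the groups far apart, and the call held in all 13 alternatives. Of 8 writers and erasers of DNA methylation 2 fell and none rose by edgeR, against 1.28% and 1.69% of all genes. There was 1 higher at an unadjusted p under 0.05, 1 higher by DESeq2 and none by limma-voom. DNMT3A, the other de novo enzyme, had 431 and 388 CPM with CHIR, against 517 and 518 CPM, and lost the call without CHIR replicate 2, untreated replicate 1 or untreated replicate 2 (edgeR adjusted p up to 0.281). The maintenance enzyme DNMT1 had 271 and 251 CPM with CHIR, against 279.6 and 275 CPM, and TET1 had 157 and 148 CPM with CHIR, against 153 and 137 CPM, neither called.

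Of 27 FGF ligands, receptors and ERK feedback genes 5 rose and 1 fell, against 1.69% and 1.28% of all genes, with a median of 0.02. Leaving out any 1 library left 3 to 5 higher and 0 or 1 lower. PHLDA1, an early ERK-responsive gene, had 208 and 200.1 CPM with CHIR, against 97.0 and 97.7 CPM in untreated cells. FOSL1, an AP-1 subunit, had 36.4 and 36.3 CPM with CHIR, against 19.1 and 19.1 CPM, and IL17RD, a membrane inhibitor of FGF signalling, had 165 and 159 CPM with CHIR, against 117 and 106 CPM. Replicates of PHLDA1 and FOSL1 lay close together, and no groups overlapped in these 3 genes. FOSL1 lost the call in the fit over all 30 libraries. Other ERK feedback genes were not called: DUSP6 had 94.4 and 104 CPM with CHIR, against 123 and 125 CPM, SPRY4 had 245 and 239.6 CPM, against 246 and 255 CPM. ETV5, an ETS factor downstream of FGF, fell to 27.2 and 29.6 CPM with CHIR, against 45.5 and 45.2 CPM, and lost the call without CHIR replicate 1 (edgeR adjusted p 0.0682). FGF19 had 16.98 and 12.0 CPM with CHIR, against 6.86 and 6.19 CPM, and lost it without CHIR replicate 1, untreated replicate 1 or untreated replicate 2 (up to 0.169).

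Of 20 immediate early genes 3 rose and none fell by edgeR, against 1.69% and 1.28% of all genes. There were 8 higher and 1 lower at an unadjusted p under 0.05, 3 and none by DESeq2 and 2 and none by limma-voom. 1 or 2 were higher when any 1 library was left out. EGR1 had 66.0 and 72.0 CPM with CHIR, against 36.7 and 36.0 CPM in untreated cells, a change of 0.93 ± 0.11 that passed in every alternative. EGR2 had 3.71 and 5.46 CPM with CHIR, against 0.395 and 1.03 CPM, and lost the call without CHIR replicate 1, CHIR replicate 2 or untreated replicate 1 (adjusted p up to 0.213 by edgeR), and ATF3 lost it without CHIR replicate 2, untreated replicate 1 or untreated replicate 2 (up to 0.353). Of 21 genes of the integrated stress and unfolded protein responses 5 rose and none fell by edgeR, DESeq2 and limma-voom alike. By edgeR 1.69% of all genes rose and 1.28% fell. None of the list was lower at an unadjusted p under 0.05, and the median was 0.18. 1 to 3 were called when any 1 library was left out. SESN2 and MTHFD2 lost the call without any 1 of the 4 libraries (edgeR adjusted p up to 0.326 and 0.297), and SLC3A2 without CHIR replicate 2 or untreated replicate 2 (up to 0.0902). The cystine transporter SLC7A11 had 259 and 292 CPM with CHIR, against 175 and 151 CPM, and CHAC1, which degrades glutathione, had 41.6 and 55.8 CPM with CHIR, against 25.6 and 27.0 CPM. CHAC1 lost the call without CHIR replicate 2 (edgeR adjusted p 0.0820), while the chaperone genes HSPA5 (295 and 284 CPM with CHIR, against 268 and 292 CPM) and HSP90B1 (1301 and 1194 CPM, against 1239 and 1229 CPM) overlapped between the groups.

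**Figure D3:**
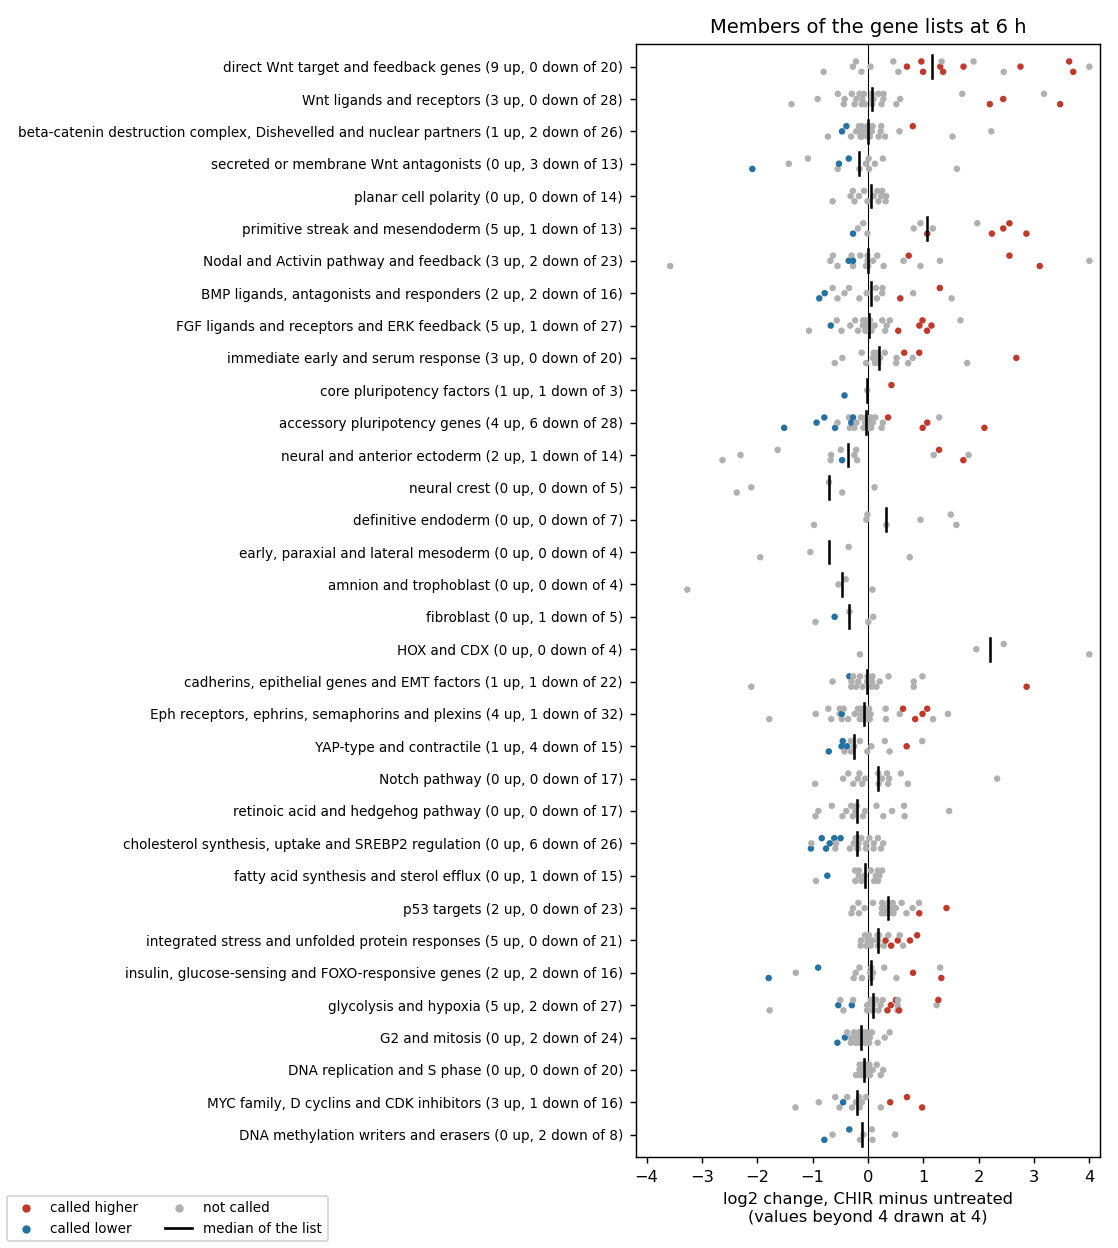
Change of each tested member of 34 gene lists (horizontal axis, log2, CHIR minus untreated), with called members coloured, a black line at the median of each list and the counts called in the row names. The direct Wnt targets (median 1.15) and the primitive streak genes (1.07) lie right of 0, and most lists centre near 0; the HOX and CDX list holds 4 genes of low count.

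Of 26 cholesterol genes 6 fell and none rose by edgeR, against 1.28% and 1.69% of all genes, with a median of -0.19. There were 10 lower and 1 higher at an unadjusted p under 0.05, and 7 lower and none higher by both DESeq2 and limma-voom. HMGCS1, an enzyme early in the mevalonate pathway, had 94.5 and 80.6 CPM with CHIR, against 183 and 176 CPM in untreated cells, a change of -1.03 ± 0.11 (edgeR adjusted p = 1.10e-05). MSMO1, a sterol demethylation enzyme, had 26.4 and 26.2 CPM with CHIR, against 44.9 and 49.1 CPM. The groups did not overlap in either gene, and both passed in all 13 alternatives. With any 1 library left out 4 to 6 of the list fell: IDI1 lost the call without CHIR replicate 1, CHIR replicate 2 or untreated replicate 1 (edgeR adjusted p up to 0.197), and SQLE without CHIR replicate 2 or untreated replicate 2 (up to 0.171). SREBF2, a main activator of sterol genes, had 147 and 152 CPM with CHIR, against 139 and 141 CPM, and FDPS, further down the pathway, had a change of -0.04 ± 0.10, neither called. Of 15 fatty acid and sterol efflux genes 1 fell, MYLIP, a ubiquitin ligase (14.7 and 16.7 CPM with CHIR, against 28.7 and 23.7 CPM), and it lost the call without CHIR replicate 1, CHIR replicate 2 or untreated replicate 1 (edgeR adjusted p up to 0.226). None of that list rose by edgeR, DESeq2 or limma-voom, with 3 higher at an unadjusted p under 0.05.

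Of 16 insulin, glucose-sensing and FOXO-responsive genes 2 rose and 2 fell, against 1.69% and 1.28% of all genes, with a median of 0.05. PIK3R1, the regulatory subunit p85 alpha of PI3-kinase, had 83.5 and 84.7 CPM with CHIR, against 34.6 and 32.6 CPM in untreated cells, a change of 1.32 ± 0.10 (edgeR adjusted p = 1.82e-07). FOXO1, a transcription factor that insulin signalling switches off, had 37.4 and 50.2 CPM with CHIR, against 88.6 and 74.9 CPM, and SESN3, a FOXO target that restrains mTOR, had 50.4 and 52.4 CPM with CHIR, against 29.4 and 29.2 CPM. SGK1, a kinase that insulin and serum induce, had 3.94 and 4.93 CPM with CHIR, against 13.7 and 17.2 CPM. All 4 kept their call with any 1 library left out. Of 27 glycolysis and hypoxia genes 5 rose and 2 fell, against 1.69% and 1.28% of all genes, with a median of 0.09. The rises were led by PDK1, a kinase that keeps pyruvate from being oxidised in mitochondria. PDK1 had 81.6 and 88.1 CPM with CHIR, against 34.7 and 35.7 CPM (1.27 ± 0.10). The glucose transporter SLC2A3 had 682 and 662 CPM with CHIR, against 516 and 538 CPM, and lost the call without CHIR replicate 1 or untreated replicate 1 (edgeR adjusted p up to 0.0677). ADM, a hypoxia gene, went the other way, at 107 and 111 CPM with CHIR, against 159.5 and 158 CPM, and lost the call without CHIR replicate 1 (0.0625). With any 1 library left out 1 to 3 of this list were higher and 0 to 2 lower, and PDK1 passed in all 13 alternatives.

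Of 32 Eph, ephrin, semaphorin, Slit and plexin genes 4 rose and 1 fell, against 1.69% and 1.28% of all genes, with a median of -0.07. SEMA6A, a membrane semaphorin, had 975 and 991 CPM with CHIR, against 649 and 619.5 CPM in untreated cells, SLIT2, a secreted guidance ligand, had 49.6 and 60.3 CPM with CHIR, against 26.5 and 25.9 CPM, and EFNB2, an ephrin, had 52.0 and 62.3 CPM with CHIR, against 33.9 and 29.4 CPM. The groups did not overlap, and all 3 passed in all 13 alternatives. EPHA2 had 42.4 and 44.3 CPM with CHIR, against 24.8 and 19.0 CPM, and EPHA1 had 75.5 and 77.0 CPM with CHIR, against 101 and 111 CPM, so the 2 receptors moved in opposite directions. EPHA2 lost the call without untreated replicate 2 (edgeR adjusted p 0.0791), and EPHA1 without CHIR replicate 1, CHIR replicate 2 or untreated replicate 2 (up to 0.104). Of 15 YAP-type and contractile genes 1 rose and 4 fell, against 1.69% and 1.28% of all genes. AMOTL2, which holds YAP at junctions, had 142 and 164 CPM with CHIR, against 94.5 and 94.3 CPM, and the tropomyosin gene TPM1 had 361 and 362 CPM with CHIR, against 501 and 507 CPM. With any 1 library left out 1 was higher and 1 or 2 lower, and in the fit over all 30 libraries none was lower. MYL9 lost the call without any 1 of the 4 libraries (edgeR adjusted p up to 0.153), TAGLN without CHIR replicate 1, CHIR replicate 2 or untreated replicate 1 (up to 0.228), and CNN1 without CHIR replicate 2 or untreated replicate 2 (up to 0.117). Of 22 adhesion and epithelial-mesenchymal genes 1 rose (ZEB2) and 1 fell (KRT18), against 1.69% and 1.28% of all genes, with a median of -0.01. ZEB2 lost the call without CHIR replicate 2 or untreated replicate 1 (edgeR adjusted p up to 0.146) and KRT18 without any 1 of the 4 (up to 0.112). CDH1 (E-cadherin) had 287 and 282 CPM with CHIR, against 259 and 253 CPM, and EPCAM had 277 and 299 CPM with CHIR, against 293 and 290.1 CPM, neither called.

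Of 16 BMP ligands, receptors, antagonists and responders 2 rose and 2 fell, with a median of 0.06, and with any 1 library left out 1 or 2 were higher and none lower. ID2, an inhibitor of basic helix-loop-helix factors, had 35.2 and 33.04 CPM with CHIR, against 15.3 and 12.4 CPM in untreated cells, and passed in all 13 alternatives. Its relative ID4 had 8.41 and 7.12 CPM with CHIR, against 14.3 and 14.4 CPM. ID4 and BAMBI, a decoy receptor, lost the call without any 1 of the 4 libraries (edgeR adjusted p up to 0.288 and 0.360), and ID3 without CHIR replicate 1 or untreated replicate 1 (up to 0.169). None of 17 Notch genes and none of 17 retinoic acid and hedgehog genes was called by edgeR, DESeq2 or limma-voom. At an unadjusted p under 0.05 there were 2 higher and 2 lower in the Notch list, and 1 higher and 4 lower in the other. Nor was any of 4 HOX and CDX genes tested, with 2 higher at an unadjusted p under 0.05.

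Of 23 p53 targets 2 rose and none fell by edgeR, against 1.69% and 1.28% of all genes, with a median of 0.37. At an unadjusted p under 0.05, 13 were higher and 1 lower. DESeq2 called 4 higher, limma-voom 1, and neither any lower. Leaving out any 1 library gave 0 to 3 higher. PHLDA3 had 28.95 and 33.6 CPM with CHIR, against 16.02 and 16.9 CPM in untreated cells, and lost the call without CHIR replicate 2 or untreated replicate 1 (edgeR adjusted p up to 0.106), and BTG2 without CHIR replicate 2, untreated replicate 1 or untreated replicate 2 (up to 0.437). Of 16 genes of the MYC family, D cyclins and their inhibitors 3 rose and 1 fell, against 1.69% and 1.28% of all genes. Their median was -0.19. Beside CCND1, CCND2 had 485 and 462 CPM with CHIR, against 367 and 351 CPM, and lost the call without CHIR replicate 1 (edgeR adjusted p 0.0538). MYCL rose and MYCN fell: MYCL had 16.5 and 19.0 CPM with CHIR, against 10.0 and 8.00 CPM, and MYCN had 73.7 and 77.3 CPM with CHIR, against 106 and 100.0 CPM. MYCL lost the call without CHIR replicate 2 or untreated replicate 2 (edgeR adjusted p up to 0.170), and MYCN without any 1 of the 4 (up to 0.196). Of 24 genes of G2 and mitosis 2 fell and none rose by edgeR, against 1.28% and 1.69% of all genes. There were 7 lower and 2 higher at an unadjusted p under 0.05, 4 lower and 1 higher by DESeq2 and 2 and none by limma-voom. NUSAP1, a spindle protein, had 111 and 102 CPM with CHIR, against 164 and 148 CPM, and passed in all 13 alternatives. CDC20, the other gene that fell, lost the call without any 1 of the 4 libraries (edgeR adjusted p up to 0.178), so 1 gene was lower in each of these fits. Of 20 DNA replication genes none was called by edgeR, DESeq2 or limma-voom, with 1 higher at an unadjusted p under 0.05.

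Several of the largest changes lay outside these lists. NKX1-2 (chromosome 10, 124445239 to 124450184, minus strand), a homeobox gene of the caudal epiblast in mouse and chick, had 134 and 122 CPM with CHIR, against 17.1 and 23.5 CPM in untreated cells. FOXB1, a forkhead factor of the developing brain, had 51.3 and 48.8 CPM with CHIR, against 8.05 and 8.26 CPM, and DACT1 had 110.1 and 90.6 CPM with CHIR, against 14.9 and 19.8 CPM. The groups were far apart in all 3 genes, and their changes were 2.66 ± 0.16, 2.62 ± 0.19 and 2.54 ± 0.15. At lower levels, GAD1, an enzyme of GABA synthesis, had 9.10 and 10.8 CPM with CHIR, against 1.42 and 1.72 CPM, SEMA3C, a secreted semaphorin, had 11.6 and 10.9 CPM with CHIR, against 1.03 and 2.58 CPM, and HERC3, a ubiquitin ligase, had 12.1 and 12.0 CPM with CHIR, against 1.97 and 1.81 CPM. All 6 passed in all 13 alternatives. Among falls, ERRFI1, a feedback inhibitor of the EGF receptor, had 23.5 and 18.3 CPM with CHIR, against 55.0 and 59.3 CPM, and IQSEC2, a synaptic exchange factor for ARF proteins, had 8.72 and 10.1 CPM with CHIR, against 24.9 and 22.7 CPM, and both also passed in all 13. BLOC1S5-TXNDC5 and MSH5-SAPCD1, read-through genes that share exons with their neighbours, and SMIM11A, which has a near-identical copy, were called too, but their counts are uncertain. SMIM11A had 1.21 and 1.29 CPM with CHIR, against 13.2 and 1.89 CPM, so its fall rests on untreated replicate 1, and without that library the change was -0.59 (edgeR adjusted p 0.644).

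**Figure D4:**
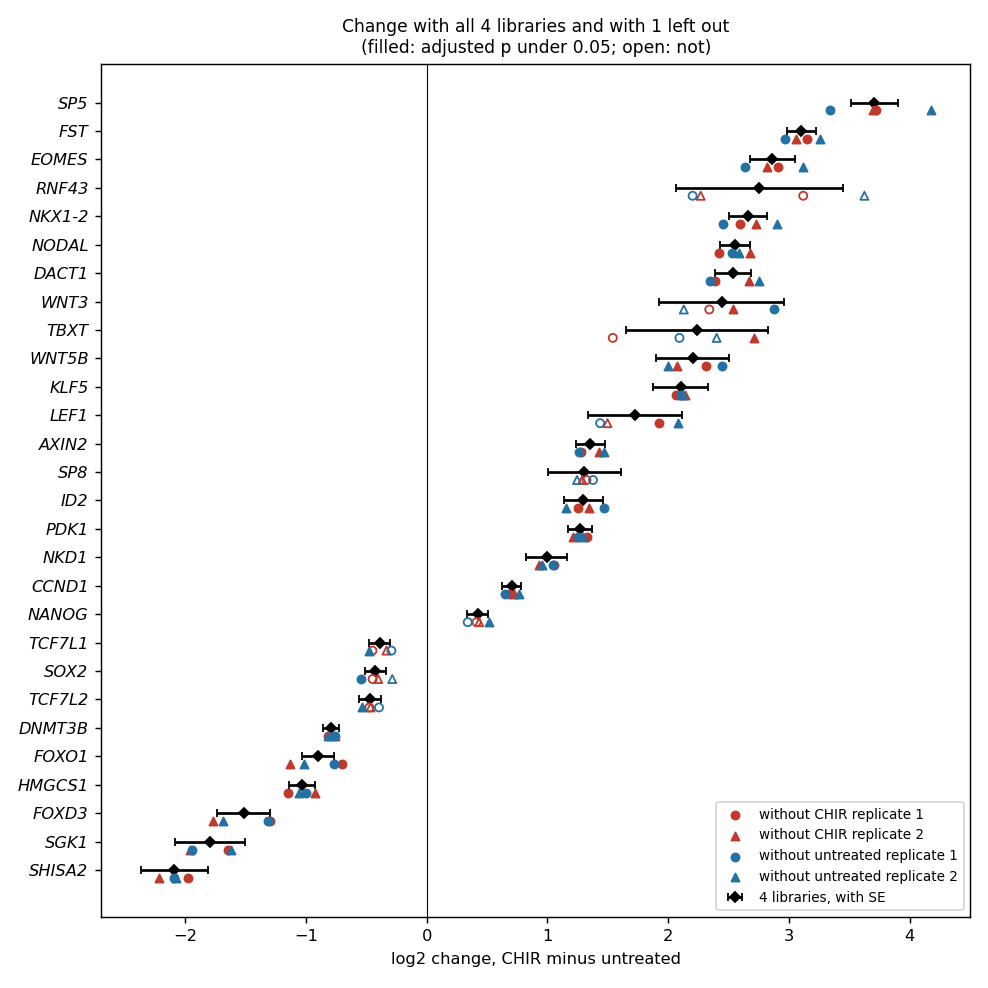
Change of 28 genes (horizontal axis, log2, CHIR minus untreated) in the fit with all 4 libraries (diamonds, with SE) and with 1 library left out (circles and triangles, filled where the adjusted p was under 0.05). FST runs from 2.97 to 3.26 and KLF5 from 2.07 to 2.14 with all points filled, while RNF43 and SP8 have open points only.

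SOX17, which defines endoderm, had 0 counts in all 4 libraries, which allows up to 3 counts in each, and of 7 endoderm, 4 mesoderm, 5 neural crest and 4 amnion genes tested none was called by edgeR, DESeq2 or limma-voom. At an unadjusted p under 0.05, 1 endoderm gene was higher, and 2 mesoderm, 2 crest and 1 amnion gene were lower. Summed over the list, endoderm markers had 36.0 and 44.2 CPM with CHIR, against 33.3 and 36.0 CPM in untreated cells, mesoderm markers 57.8 and 63.2 CPM, against 72.2 and 82.5 CPM, crest markers 34.4 and 33.3 CPM, against 42.4 and 43.4 CPM, and amnion markers 31.5 and 27.6 CPM, against 38.4 and 34.9 CPM. Neural and anterior ectoderm markers summed to 550.4 and 553.9 CPM with CHIR, against 682.7 and 676.3 CPM, a fall mostly from NES (below). Of 14 tested 2 rose and 1 fell, against 1.69% and 1.28% of all genes. GBX2, a midbrain-hindbrain factor also used in stem cells, had 13.3 and 17.2 CPM with CHIR, against 4.58 and 4.65 CPM, and lost the call without CHIR replicate 2, untreated replicate 1 or untreated replicate 2 (edgeR adjusted p up to 0.136). IRX2 had 34.9 and 40.9 CPM with CHIR, against 13.5 and 17.7 CPM, and NES, the nestin gene that stem cells also express, had 359 and 358 CPM with CHIR, against 513 and 479 CPM. NES lost the call without CHIR replicate 1, CHIR replicate 2 or untreated replicate 1 (edgeR adjusted p up to 0.107). Fibroblast markers summed to 294.0 and 310.6 CPM with CHIR, against 424.2 and 407.0 CPM, mostly from THY1, which stem cells also carry and which was the 1 of 5 that fell (188 and 198 CPM with CHIR, against 302 and 285 CPM). In these bulk libraries fewer cells of a type and less RNA per cell cannot be told apart.

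The other groups of 6 h were AA+CHIR (Activin A with CHIR), BRD+CHIR, JNJ+CHIR and BRD alone, with 2 libraries each. SP5 averaged 62.4 ± 3.14 CPM with AA+CHIR, 53.8 ± 7.15 with BRD+CHIR, 61.9 ± 5.33 with JNJ+CHIR and 71.4 ± 0.898 with CHIR alone, against 5.50 ± 2.20 CPM in untreated cells (SD, n = 2 each). EOMES averaged 125 ± 2.06 CPM with AA+CHIR, 38.03 ± 7.35 with BRD+CHIR, 37.1 ± 1.85 with JNJ+CHIR and 43.3 ± 1.92 with CHIR alone, against 5.97 ± 1.41 CPM in untreated cells. WNT5B averaged 4.45 ± 0.712 CPM with AA+CHIR, 13.7 ± 0.586 with BRD+CHIR, 15.3 ± 2.10 with JNJ+CHIR and 14.6 ± 1.71 with CHIR alone, against 3.15 ± 0.681 CPM in untreated cells. FOXB1 had 22.7 ± 2.58 CPM with AA+CHIR and 50.1 ± 1.78 with CHIR alone, against 8.15 ± 0.148 CPM, and PDK1 had 120.4 ± 5.55 CPM with AA+CHIR and 84.9 ± 4.59 with CHIR alone, against 35.2 ± 0.693 CPM. These groups share the untreated libraries, so their values are given side by side, with no test between them.

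**Figure D5:**
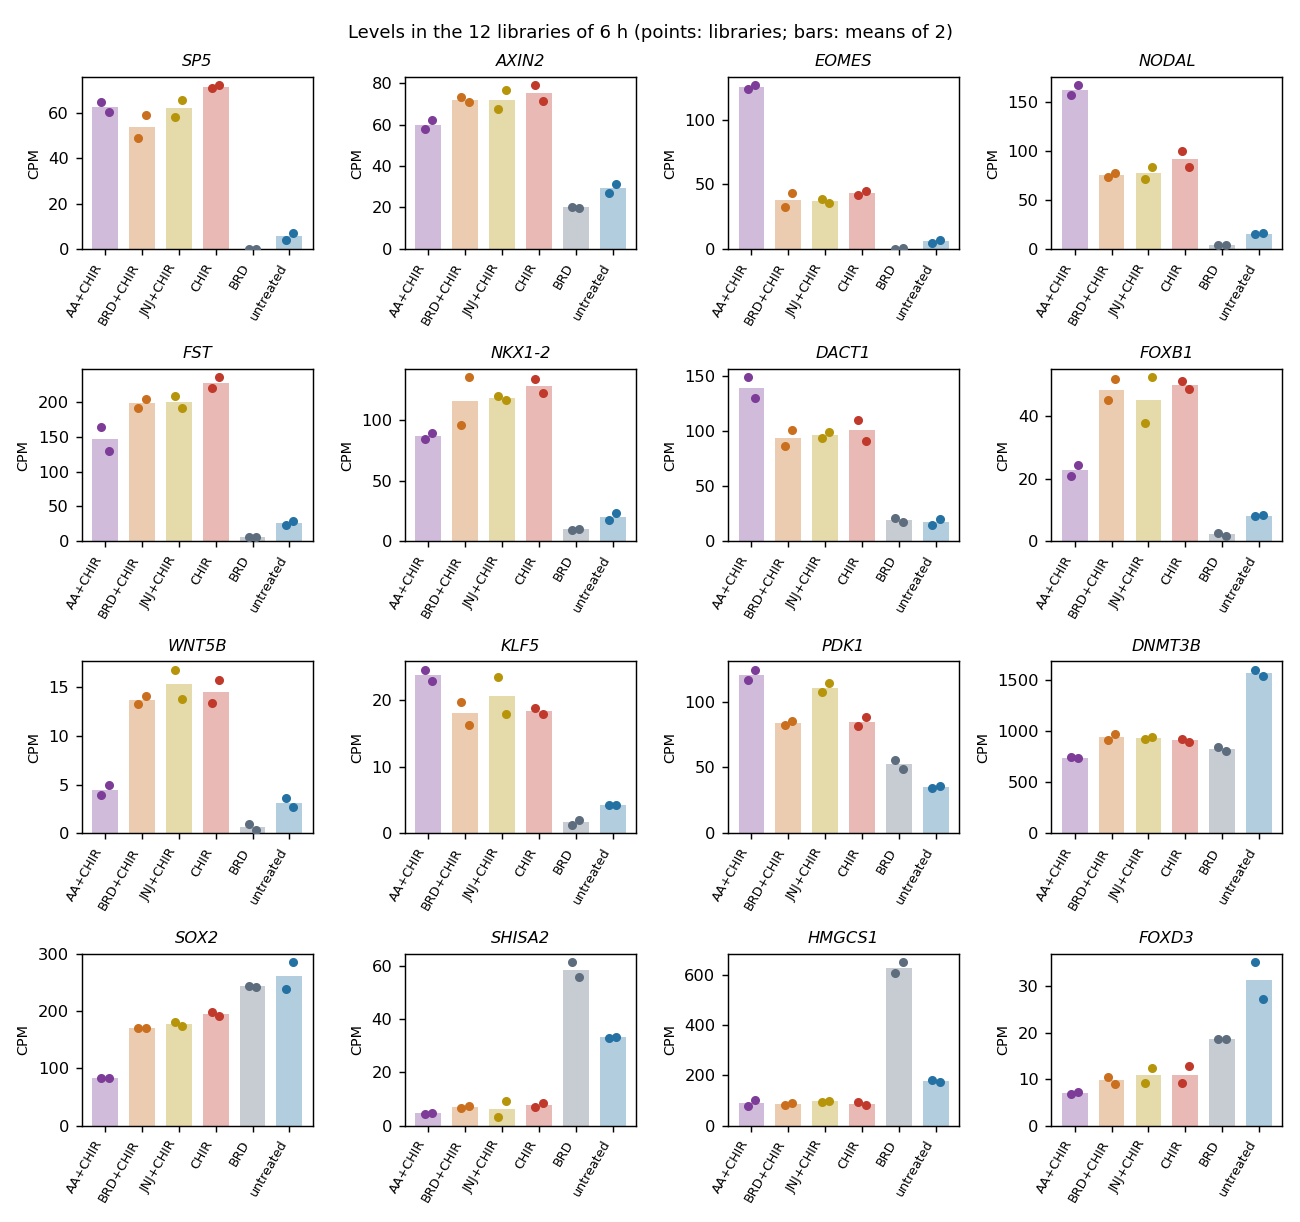
Level of 16 genes (vertical axes, CPM from 0) in the 12 libraries of 6 h, with a point for each library and a bar for each mean of 2. SP5 lies between 48.7 and 72.1 CPM in the groups with CHIR and at most at 7.05 CPM in the others, and WNT5B averages 4.45 CPM with AA+CHIR.

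BRD+CHIR and BRD alone form a second pair of groups that differ in CHIR and share no library with the first. The titles number BRD alone in another series (46) than the rest (33), and MTRNR2L genes, copies of mitochondrial ribosomal RNA, took 9.90% to 10.5% of its counts against 0.552% to 1.10% elsewhere at 6 h, so CHIR and the title series cannot be told apart in this pair. The pair differed at 53.9% of the genes tested, 27.6% higher and 26.3% lower with CHIR. Of the 251 genes that rose with CHIR alone, 147 (58.6%) were higher and 47 (18.7%) lower in BRD+CHIR, and of the 190 that fell, 116 (61.1%) were lower and 33 (17.4%) higher. SP5 averaged 53.8 ± 7.15 CPM with BRD+CHIR, against 0 CPM in both libraries of BRD alone, and AXIN2 averaged 71.9 ± 1.83 CPM, against 20.03 ± 0.370 CPM. CCND1 went the other way, with 304 ± 10.1 CPM with BRD+CHIR, against 544 ± 5.25 CPM in BRD alone, while DNMT3B had 939 ± 41.9 CPM, against 824 ± 30.3 CPM.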

How the data were processed

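The authors deposited 1 table of expected counts per gene for 30 bulk libraries, made from stranded total RNA read as single-end 85 nt reads. Salmon 1.4.0, edgeR 3.34.0 and limma 3.48.1 are listed without a role in the submitters' processing notes, and the counting settings are not given in the sources used here. The expected counts were rounded to whole counts. One edgeR 4.0.16 quasi-likelihood fit (R 4.3.3, limma 3.58.1) covered the 12 libraries of 6 h after filterByExpr (14874 of 16103 genes) with TMM scaling. It had 6 residual degrees of freedom and a common biological coefficient of variation of 0.14. p-values were adjusted by Benjamini-Hochberg over all genes tested. CHIR alone was compared with untreated cells, and BRD+CHIR with BRD alone.

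Alternatives were DESeq2 1.42.0, limma-voom, other scalings, no filter on low counts, a replicate block, other sets of libraries and each library left out. The 34 gene lists and the members were chosen with earlier results of these data known. Named were the 15 largest changes in each direction among genes with at least 5 CPM and libraries that did not overlap, up to 6 called members per list, genes under 1 CPM untreated and at least 3 CPM with CHIR, and a set of genes whatever their result; from these the text takes those it describes. Members given beside them that were not called were picked after their values were seen.

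On simulated counts for 14301 genes, the fit recovered 47.8% of 1.5-fold, 83.6% of 2-fold and 100% of 4-fold changes, with 3.75% of its calls false. Only genes with at least 5 CPM in untreated cells were changed, so these rates do not cover genes at lower levels. Counts were drawn from the untreated means and the dispersions estimated from these same libraries. The simulation therefore meets the assumptions of the fit, and its false share cannot show how far the real data depart from them. The replicates of each group differed by more than counting noise (chi-square per degree of freedom 7.31 for CHIR and 17.0 for untreated), so no library was counted as a duplicate. A count of 0 allows up to 3 counts, for counting error only. Promoters came from RefSeq (GRCh38.p14) and gene positions from GENCODE release 29. The single-cell libraries were not used here. Some members of the gene lists are not reported here by name.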

Additional observations from a re-analysis of the deposited data

How the results depend on the processing

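The 441 calls became 402 with a replicate block, and the 8020 of BRD+CHIR against BRD alone became 7923. Whether the replicate numbers pair the samples is not known, as the labels give numbers only. The correlation of same-numbered deviations between CHIR and untreated libraries was 0.00155, and over all pairs of 6 h groups it lay between -0.0584 and 0.0322. Each value rests on 1 difference per group, so it cannot exclude pairing. One fit over all 30 libraries called 186 genes, 131 higher and 55 lower, of which 79 changed at least 2-fold. It kept 40.1% of the 441 calls, and SGK1, FOXD3, FOSL1 and TPM1 lost the call only there. Losses given above per gene are mostly those with 1 library left out, and losses in other alternatives are named for some genes only. Leaving out 1 library gave 208 to 268 calls, 136 to 162 higher and 72 to 106 lower, with fewer samples in the fit. limma-voom called 220 higher and 205 lower, against 251 and 190. Among others, it did not call RNF43, DKK4, WNT3, FZD10, TBXT, PMEPA1, EGR2 and BTG2. DESeq2 called 576 genes, including all 441. Of 123 named or listed genes that were called, 53 kept the call with each library left out in turn and 44 in all alternatives. Signs turned for 3 genes that were not called, and the cause was not tested. With 1 library left out POU5F1 ranged from -0.0411 to 0.0113. FOXA2 changed by 0.0098 by limma-voom, by 0.0010 in the fit over all 30 libraries, and between -0.28 and 0.31 with 1 library left out. GSK3B lay between -0.16 and 0.12 with 1 library left out. Among genes with at least 5 CPM, 87.8% had a 95% interval of the change lying within 2-fold.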
